A study of Mus musculus with 9 samples.

Results

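The bone morphogenetic protein (BMP) and transforming growth factor beta (TGF-beta) genes of the embryonic mouse outflow tract were followed in mutants that lack an anterior second heart field enhancer of Nkx2-5, the gene of a cardiac homeodomain transcription factor. The set held 37 of the 48397 gene symbols counted, taken by symbol. It comprised 11 ligands, 10 receptors, 8 Smads, 4 antagonists and 4 Id genes. RNA sequencing covered 9 libraries of dissected cardiac outflow tract at embryonic day 12.5. The group labelled HO (5 libraries) came from embryos in which both Nkx2-5 alleles lack the enhancer (Nkx2-5 delta-enh/delta-enh), and the group labelled WT (4 libraries) from Nkx2-5+/+ littermates, all on a C57BL/6J background. The labels name no agent or transgene, and whether a library is 1 embryo or a pool is not given in the sources used here. Each group contains all cell types of the dissected piece, so fewer cells of a type and less RNA per cell cannot be told apart.

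BMP and TGF-beta ligands are secreted dimers that bring together type II and type I serine/threonine kinase receptors. BMP receptors phosphorylate Smad1, Smad5 and Smad9, while TGF-beta and activin receptors phosphorylate Smad2 and Smad3. These receptor Smads enter the nucleus with Smad4, and Smad6 and Smad7 inhibit the pathway. The Id genes, which encode inhibitors of basic helix-loop-helix factors, are classical BMP targets. In the outflow tract these signals from the myocardium are known to drive formation of the endocardial cushions and septation.

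Library totals ran over 27707435 to 49094225 counts in genes, and 20606 to 22093 symbols were detected per library. Nkx2-5 itself averaged 17.5 ± 4.64 CPM (counts scaled to a common library size) in HO and 36.3 ± 11.9 CPM in WT (SD, n = 5 and 4), a log2 fold change of -1.05 (SE 0.26, edgeR adjusted p = 0.896). DESeq2 gave an adjusted p of 0.0544, and 0.0241 with the replicate number as a block. The groups overlapped, since WT 1 had 18.8 CPM and HO ranged over 11.4 to 24.4 CPM. HO 2 stood apart, with a summed level of 10 neuron markers of 3144 CPM, against 119 to 172 CPM in the other libraries, and 181 CPM for 6 Schwann cell markers, against 9.74 to 54.7 CPM. The deposited libraries also carry a number in their names. The first number is shared by HO 1, HO 2, WT 1 and WT 2 and the second by HO 3, HO 4, WT 3 and WT 4. HO 5 carries a number of its own, which may be a transposition of the second, and it was read with the second. What the number stands for is not given in the sources used here, and it is called the library number below. Nkx2-5 had a log2 fold change of -0.55 within the first number (edgeR adjusted p = 0.842) and -1.44 within the second (adjusted p = 0.112), and the interaction with the number had an adjusted p of 0.770.

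None of the 36 members with enough counts for a test (all but Bmp10) changed between HO and WT, and none of the 16522 genes tested did either, a background of 0% (edgeR quasi-likelihood test, Benjamini-Hochberg adjusted p of 0.05 over all genes tested). At an unadjusted p under 0.05, 1 of the 36 members was higher in HO (Id1, 2.78%), against 2.32% of all genes tested, and 0 were lower, against 2.94%. DESeq2 called 0 of the 36 members after adjustment, against a background of 0.225% of genes. At an unadjusted p under 0.05 it gave 1 (Id1), against 1116 of the 16522 genes tested in edgeR. Limma-voom with sample weights called 0 members after adjustment, against 4 of the 16522 genes tested. At an unadjusted p under 0.05 it also gave 0 members, and the share of all genes was not computed for it. No member had HO values wholly apart from its WT values, against 1.80% of all genes tested. The log2 fold change was smaller than its own standard error for 26 of the 36. Its 95% interval lay within 1.5-fold in either direction for 16 members and within 2-fold for 26, and reached past 2-fold for the other 10. The median log2 fold change of the 36 was 0.08, beside 0.00 over all genes tested, and 26 of the 36 lay above 0 (72.2%), beside 50.6% of all genes.

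Markers of the tissue were present in both groups. The summed level of 8 myocardial markers was 11334 to 15405 CPM in HO and 7811 to 18583 CPM in WT, and that of 7 endothelial and endocardial markers 751 to 923 CPM in HO and 707 to 852 CPM in WT. Of 12 marker lists, 3 had sums that did not overlap between the genotypes. Those of smooth muscle (6 markers) were 2474 to 3764 CPM in HO and 3775 to 4134 CPM in WT, those of foregut and lung epithelium (8 markers) 46.4 to 69.9 CPM in HO and 72.5 to 88.7 CPM in WT, and those of the second heart field (7 markers) 56.1 to 165 CPM in HO and 48.9 to 54.8 CPM in WT. The members of the last 2 lists did not move one way. In the foregut list the keratin genes Krt8 (14.9 CPM in HO and 29.7 CPM in WT) and Krt18 (36.5 CPM in HO and 48.6 CPM in WT) made up most of the sum, the lung factor Nkx2-1 and the foregut factors Foxa1 and Foxa2 averaged under 0.2 CPM in either group, and the median log2 fold change of the 5 tested markers was 0.27. In the second heart field list Isl1 (67.4 CPM in HO and 37.5 CPM in WT, with 142 CPM in HO 2) and Fgf10 (12.1 CPM in HO and 5.97 CPM in WT) made up most of the sum, while Tbx1 had a log2 fold change of -0.98 and Eya1 of -1.30. The sums of 8 epicardium and mesothelium markers overlapped (487 to 790 CPM in HO and 743 to 1097 CPM in WT). Their median log2 fold change was -0.55, and 4 had an unadjusted edgeR p under 0.05. Tbx18 (0.20) and Tcf21 (0.11) of that list lay above 0. DESeq2 called Krt19 of that list (adjusted p = 0.0191) and Krt8 (adjusted p = 5.27e-06), while edgeR called neither after adjustment. The part of these lists in the members' values was not tested.

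**Figure D1:**
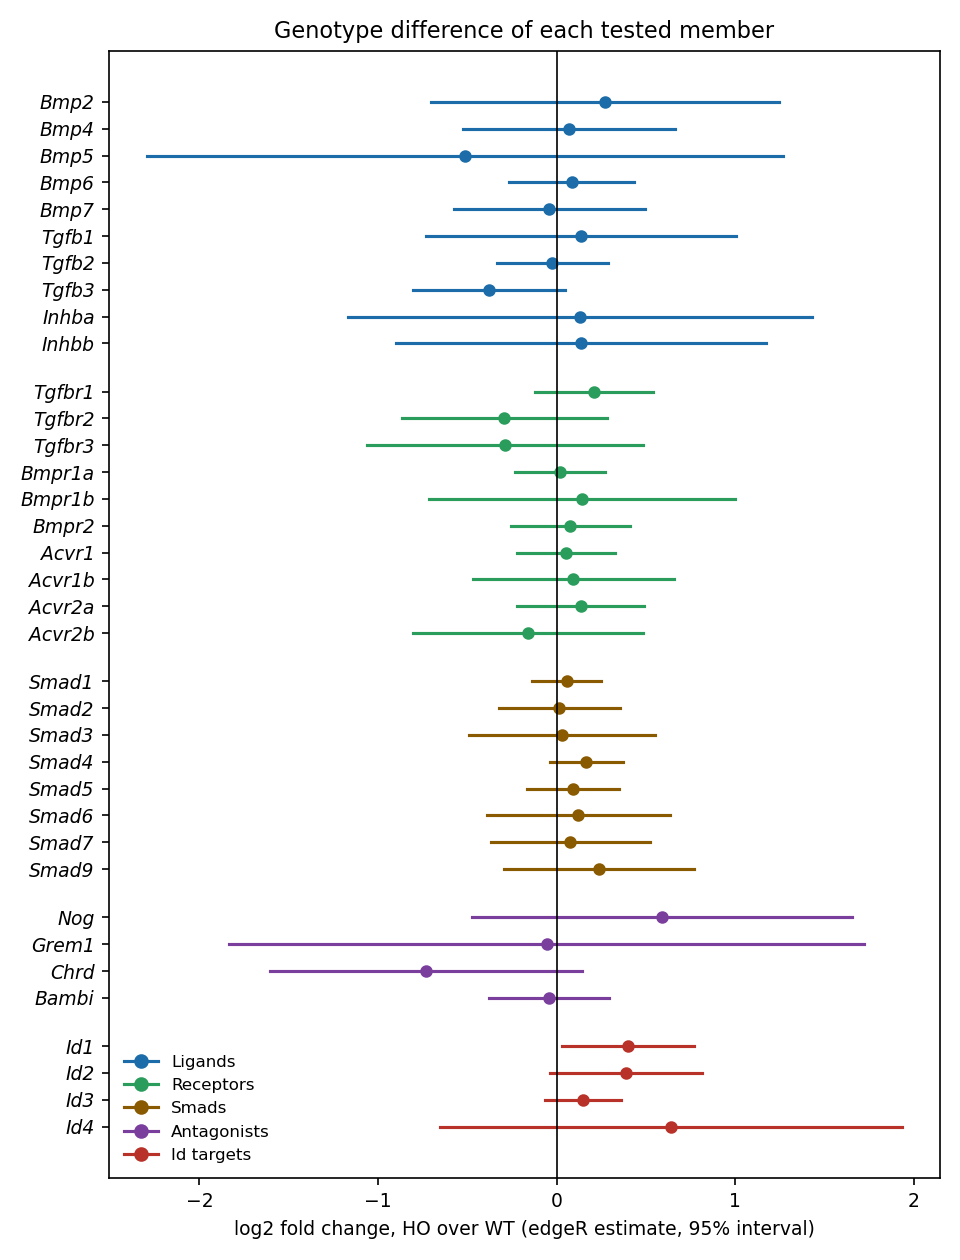
Log2 fold change, HO over WT, of each of the 36 tested members by role (edgeR estimate as a point, 95% interval as a line). The intervals of all but Id1 cross 0, and those of Bmp5, Grem1 and Id4 are among the widest.

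The Id genes, the BMP targets of the set, had the largest median fold change of the 5 roles. Per kilobase of exon, Id3 had a mean of 369 CPM per kb over the 9 libraries, Id2 201, Id1 67.7 and Id4 8.76. All 4 fold changes lay above 0, with a median of 0.39 on the log2 scale.

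Id1 (ENSMUSG00000042745, chr2:152736251-152737410 of mm10, plus strand) had 87.5, 79.9, 89.2, 83.9 and 99.0 CPM in HO 1 to 5, against 57.5, 46.2, 84.7 and 78.5 CPM in WT 1 to 4. WT 1, WT 2 and, by a small margin, WT 4 lay below every HO library, and WT 3 lay within the HO range. HO exceeded WT by a log2 fold change of 0.40 (SE 0.17, edgeR adjusted p = 0.896). Within the first library number it was 0.71 (adjusted p = 0.537), and within the second 0.15 (adjusted p = 0.930). Leaving out 1 library at a time moved it between 0.26 and 0.54, and the unadjusted edgeR p stayed under 0.05 in 4 of the 9 such fits.

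Id2 (ENSMUSG00000020644, chr12:25093799-25097140, minus strand) had 563, 541, 523, 509 and 597 CPM in HO 1 to 5, against 371, 253, 523 and 525 CPM in WT 1 to 4. Again WT 1 and WT 2 were the low libraries. Its log2 fold change was 0.39 (SE 0.19, edgeR adjusted p = 0.896), with 0.84 within the first library number and 0.05 within the second. Leaving out 1 library moved it between 0.21 and 0.52.

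Id3 (ENSMUSG00000007872, chr4:136143497-136145755, plus strand), the most abundant member of all per kilobase, had 721, 642, 681, 705 and 706 CPM in HO 1 to 5, against 669, 525, 661 and 638 CPM in WT 1 to 4. WT 2 and WT 4 were below every HO library, WT 1 and WT 3 were inside the HO range, and the log2 fold change was 0.15 (SE 0.10, adjusted p = 0.902).

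Id4 (ENSMUSG00000021379, chr13:48261228-48266026, plus strand) had 30.7, 109, 17.6, 19.8 and 23.5 CPM in HO 1 to 5, against 43.9, 19.5, 22.6 and 16.8 CPM in WT 1 to 4. A single library, HO 2, which also held the neuron and Schwann cell markers, lay far above the rest. Its log2 fold change was 0.64 (SE 0.58, adjusted p = 0.935) with that library and -0.16 without it, and the part of the neural markers in this value was not tested. Without HO 2 the median of the 4 Id genes was 0.28. Within the first library number it was 0.77 and within the second 0.08.

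The genotype differences of Id1 and Id2 were larger in the libraries of the first number. As a test of that contrast itself, the interaction of genotype and library number (second minus first) was -0.54 for Id1 (SE 0.19, edgeR adjusted p = 0.603) and -0.77 for Id2 (SE 0.24, adjusted p = 0.534). After adjustment no member passed this interaction test, beside 0.0605% of all genes. At an unadjusted p under 0.05, 8 of the 36 members passed, beside 1215 of the 16522 genes.

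**Figure D2:**
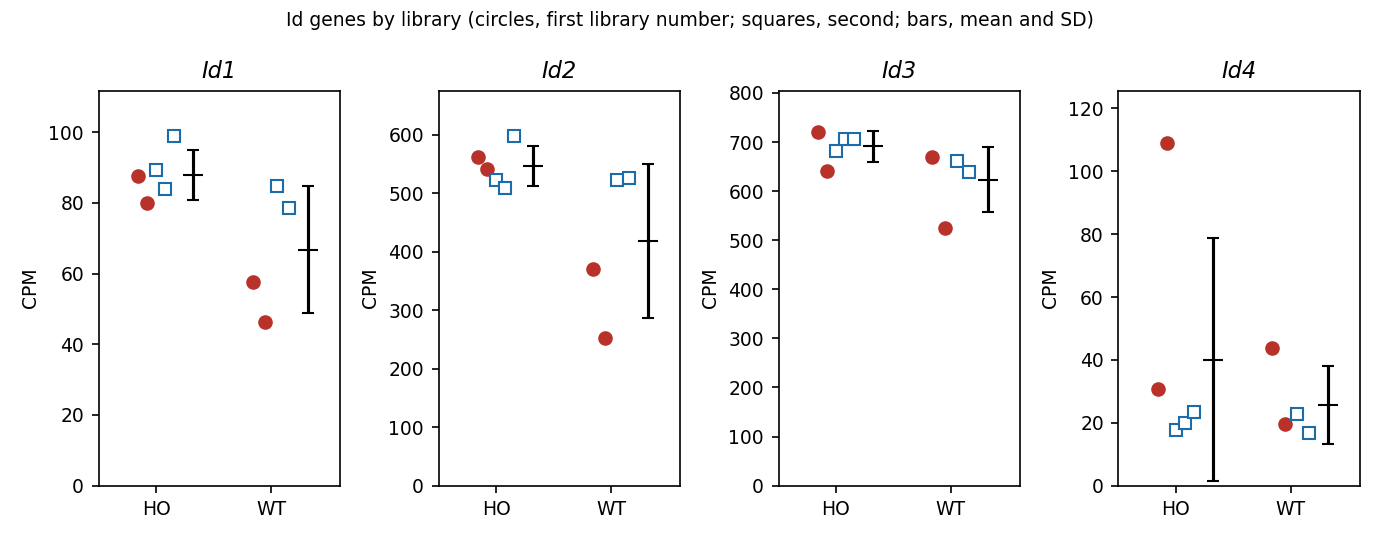
CPM of Id1, Id2, Id3 and Id4 in each HO and WT library, with circles for the first library number, squares for the second and bars for the group mean and SD. The WT circles of Id1 (57.5 and 46.2 CPM) and Id2 (371 and 253 CPM) sit below all other points of their panels.

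Among the ligands, Bmp4 was the most abundant per kilobase (60.9 CPM per kb over the 9 libraries), followed by Tgfb2 (42.7), Tgfb3 (32) and Bmp7 (17.8). Bmp2 (9.81), Bmp6 (7.21) and Inhba (5.56) formed a middle tier, and Bmp5 (0.494), Inhbb (0.462) and Tgfb1 (0.290) were near the low end. Bmp10, a BMP of the trabecular myocardium, was at 0 to 0.279 CPM and had at most 8 reads in a library. Neighbours in this order are not separated where their ranges over libraries overlap, as those of Bmp5, Inhbb and Tgfb1 do.

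Bmp4 (ENSMUSG00000021835, chr14:46383520-46390669, minus strand), a BMP needed for outflow tract septation in the mouse, had 117, 77.3, 178, 163 and 163 CPM in HO 1 to 5, against 87.8, 108, 177 and 159 CPM in WT 1 to 4. The genotypes overlapped throughout, and the libraries of the first number were the low ones in both. The log2 fold change was 0.07 (SE 0.27, edgeR adjusted p = 0.989).

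Tgfb3, 1 of the 3 TGF-beta isoforms, had the smallest p of the ligands. It measured 119, 95, 82.7, 105 and 75.6 CPM in HO 1 to 5, against 167, 140, 94.8 and 95.8 CPM in WT 1 to 4, so that WT 1 and WT 2 lay above every HO library and WT 3 and WT 4 lay inside the HO range. The log2 fold change was -0.38 (SE 0.19, edgeR adjusted p = 0.896), with -0.50 within the first library number and -0.12 within the second. The smooth muscle sum was also lower in HO, by the values above, and was 3975, 4134, 4124 and 3775 CPM in WT 1 to 4. Its part in the Tgfb3 values was not tested.

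Bmp2, a BMP of the outflow tract myocardium that induces cushion mesenchyme, had a log2 fold change of 0.27 (SE 0.44). It averaged 37.7 ± 11.8 CPM in HO and 31.3 ± 20.6 CPM in WT (SD, n = 5 and 4). Within the first number it had 26.6 and 28.6 CPM in HO, against 15.2 and 11.7 CPM in WT, a log2 fold change of 1.06 (edgeR adjusted p = 0.537). Within the second it had 41.5, 36.0 and 55.9 CPM in HO, against 49.3 and 48.9 CPM in WT, a log2 fold change of -0.14. The interaction was -1.18 (SE 0.29, edgeR adjusted p = 0.379). Bmp5, which overlaps Bmp7 in heart development, was the ligand with the largest estimate (-0.51, SE 0.80), and WT 1 had 0.0278 CPM of it, beside 2.62 to 3.58 CPM in the other WT libraries. The other 6 tested ligands (Bmp6, Bmp7, Tgfb1, Tgfb2, Inhba and Inhbb) had log2 fold changes between -0.04 and 0.14.

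**Figure D3:**
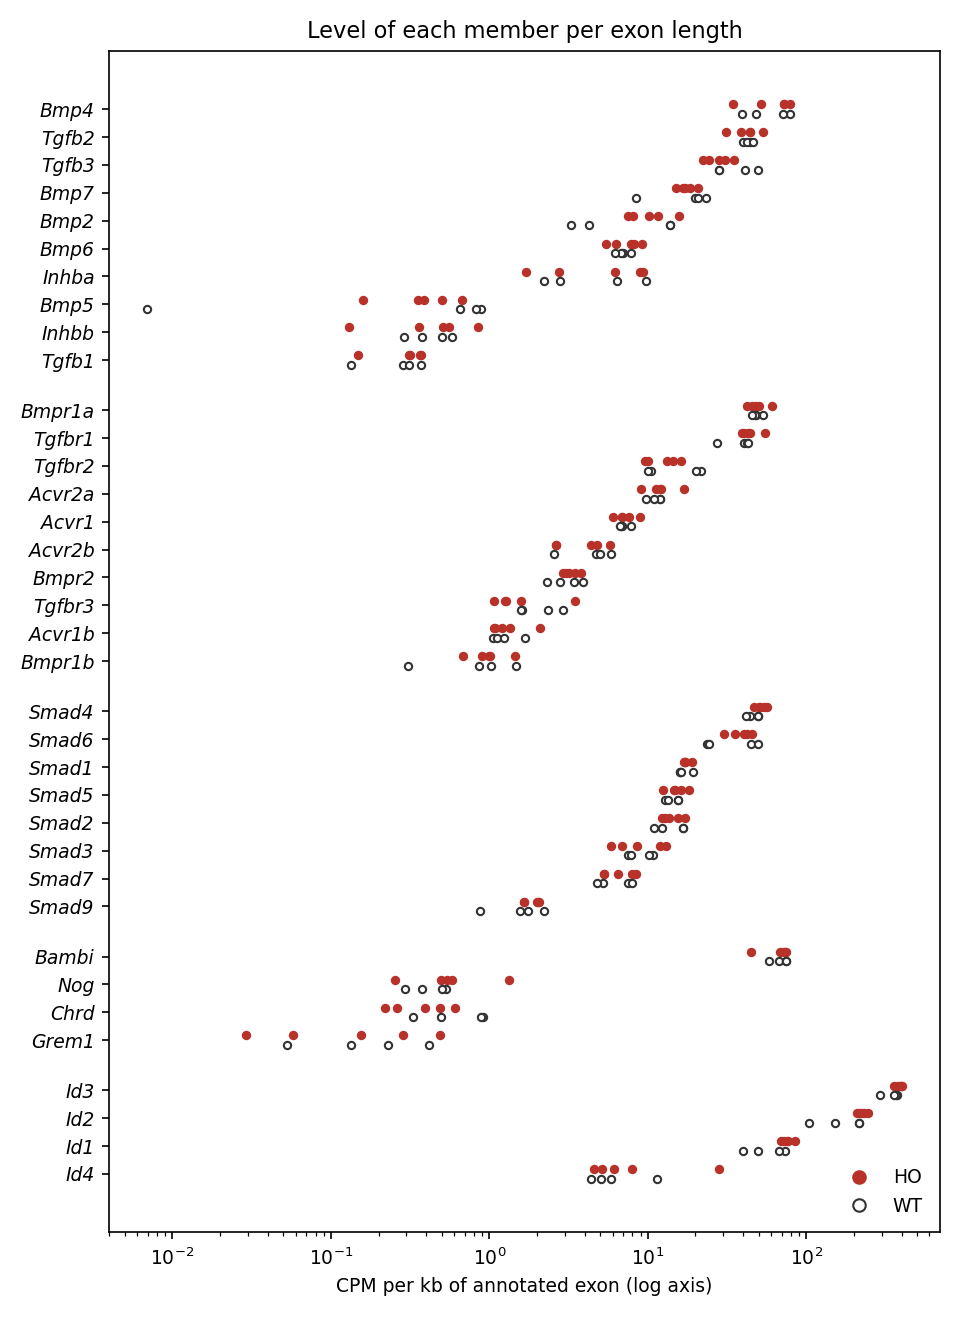
Level of each member in CPM per kilobase of exon on a log axis, by role, with 1 point per library (HO and WT by colour). Levels span from Id3, with a mean of 369 CPM per kb, to Grem1, with 0.205, and the HO and WT points of every member overlap; Bmp10 is left out.

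All 10 receptors were measured. The most abundant per kilobase were Bmpr1a, a type I BMP receptor (49.2 CPM per kb), and Tgfbr1, the type I TGF-beta receptor (41.6), followed by the type II receptors Tgfbr2 (14.0) and Acvr2a (11.8). The type I receptor Acvr1 (7.18) and the type II receptors Acvr2b (4.26) and Bmpr2 (3.21) were lower, as were the co-receptor Tgfbr3 (1.90) and the type I receptors Acvr1b (1.32) and Bmpr1b (0.966).

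Bmpr1a (ENSMUSG00000021796, chr14:34410734-34503341, minus strand) had 319, 269, 305, 290 and 388 CPM in HO 1 to 5, against 341, 308, 302 and 291 CPM in WT 1 to 4. The WT values fell inside the HO range, and the log2 fold change was 0.02 (SE 0.11, 95% interval -0.23 to 0.27). The other 9 receptors had log2 fold changes between -0.29 and 0.21, none with an unadjusted edgeR p under 0.05. Tgfbr1 averaged 289 ± 40.1 CPM in HO and 250 ± 48.0 CPM in WT (SD, n = 5 and 4), a log2 fold change of 0.21 (SE 0.15, adjusted p = 0.913).

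Of the 10 receptors, 3 had a log2 fold change below 0, namely Tgfbr2, Tgfbr3 and Acvr2b (-0.16), and 7 lay above 0. Eng, a co-receptor outside the set, had 0.21 within the first library number and 0.12 within the second. Tgfbr2 averaged 104 ± 23.6 CPM in HO and 128 ± 50.5 CPM in WT (log2 fold change -0.29, SE 0.26), and the difference was -0.48 within the first library number and 0.15 within the second. Tgfbr3, or betaglycan, had 7.03, 22.6, 8.30, 10.4 and 8.26 CPM in HO 1 to 5, against 19.0, 15.3, 10.5 and 10.4 CPM in WT 1 to 4. HO 2 was the highest of all 9 libraries. The other 4 HO libraries lay below every WT library, but by a small margin for HO 4 (10.37 CPM) against WT 4 (10.44 CPM). The share of all genes that separate without HO 2 was not computed. Without HO 2 the log2 fold change was -0.70 (edgeR adjusted p = 0.901) in place of -0.29.

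All 8 Smads could be tested. Smad4, the common partner of the receptor Smads, was the most abundant per kilobase (49.4 CPM per kb), then the inhibitory Smad6 (37.4), Smad1 (17.2), Smad5 (14.8), Smad2 (14.3), Smad3 (9.19), the inhibitory Smad7 (6.56) and Smad9 (1.76). Smad1, Smad5 and Smad2 overlapped across libraries. All 8 fold changes lay above 0, between 0.01 and 0.24 on the log2 scale, with a median of 0.08. The median was 0.12 within the first library number and 0.03 within the second, where Smad2 (-0.12), Smad6 (-0.14), Smad7 (-0.02) and Smad9 (-0.16) lay below 0. Within the first number Smad3 lay below 0 (-0.26).

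Smad4 (ENSMUSG00000024515, chr18:73639009-73703780, minus strand) had 174, 188, 202, 190 and 210 CPM in HO 1 to 5, against 163, 154, 185 and 185 CPM in WT 1 to 4. The 2 highest WT libraries exceeded HO 1 alone, and the log2 fold change was 0.17 (SE 0.09, edgeR adjusted p = 0.896). Smad1, a receptor Smad of the BMP branch, averaged 110 ± 5.28 CPM in HO and 106 ± 9.88 CPM in WT (SD, n = 5 and 4), and its 95% interval ran over -0.14 to 0.25, the narrowest of the 36. Smad9, also of the BMP branch, had the largest estimate of the Smads (0.24, SE 0.24), which moved between 0.03 and 0.44 when 1 library was left out and was 0.77 within the first number. The inhibitory Smad6 had 114 and 96.6 CPM in HO 1 and 2, against 75.5 and 78.5 CPM in WT 1 and 2. In the second number its libraries had 146, 135 and 131 CPM in HO, against 144 and 159 CPM in WT. The interaction for Smad6 was -0.59 (SE 0.17, edgeR adjusted p = 0.480).

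The 4 antagonists differed widely in level. Bambi, a kinase-less pseudoreceptor, had 67.5 CPM per kb, while the secreted BMP-binding proteins Nog (0.546), Chrd (0.510) and Grem1 (0.205) were scarce. Bambi (ENSMUSG00000024232, chr18:3507923-3516404, plus strand) had 345, 228, 378, 369 and 371 CPM in HO 1 to 5, against 296, 340, 377 and 379 CPM in WT 1 to 4. HO 2 was the lowest, the remaining libraries overlapped, and the log2 fold change was -0.04 (SE 0.15).

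Chrd had 2.46, 1.64, 3.03, 3.81 and 1.38 CPM in HO 1 to 5, against 5.67, 5.54, 2.06 and 3.10 CPM in WT 1 to 4. WT 1 and WT 2 were above every HO library and the other two WT libraries were inside the HO range. The log2 fold change was -0.73 (SE 0.39, edgeR adjusted p = 0.896), -1.43 within the first number and 0.08 within the second. Nog had 2.27 CPM in HO 2, beside 0.428 to 0.983 CPM in the other HO libraries and 0.497 to 0.901 CPM in WT, and its log2 fold change was 0.59 (SE 0.48), or 0.14 without HO 2. Grem1 lay between 0.121 and 2.02 CPM in HO and between 0.218 and 1.74 CPM in WT (log2 fold change -0.06, SE 0.80).

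**Figure D4:**
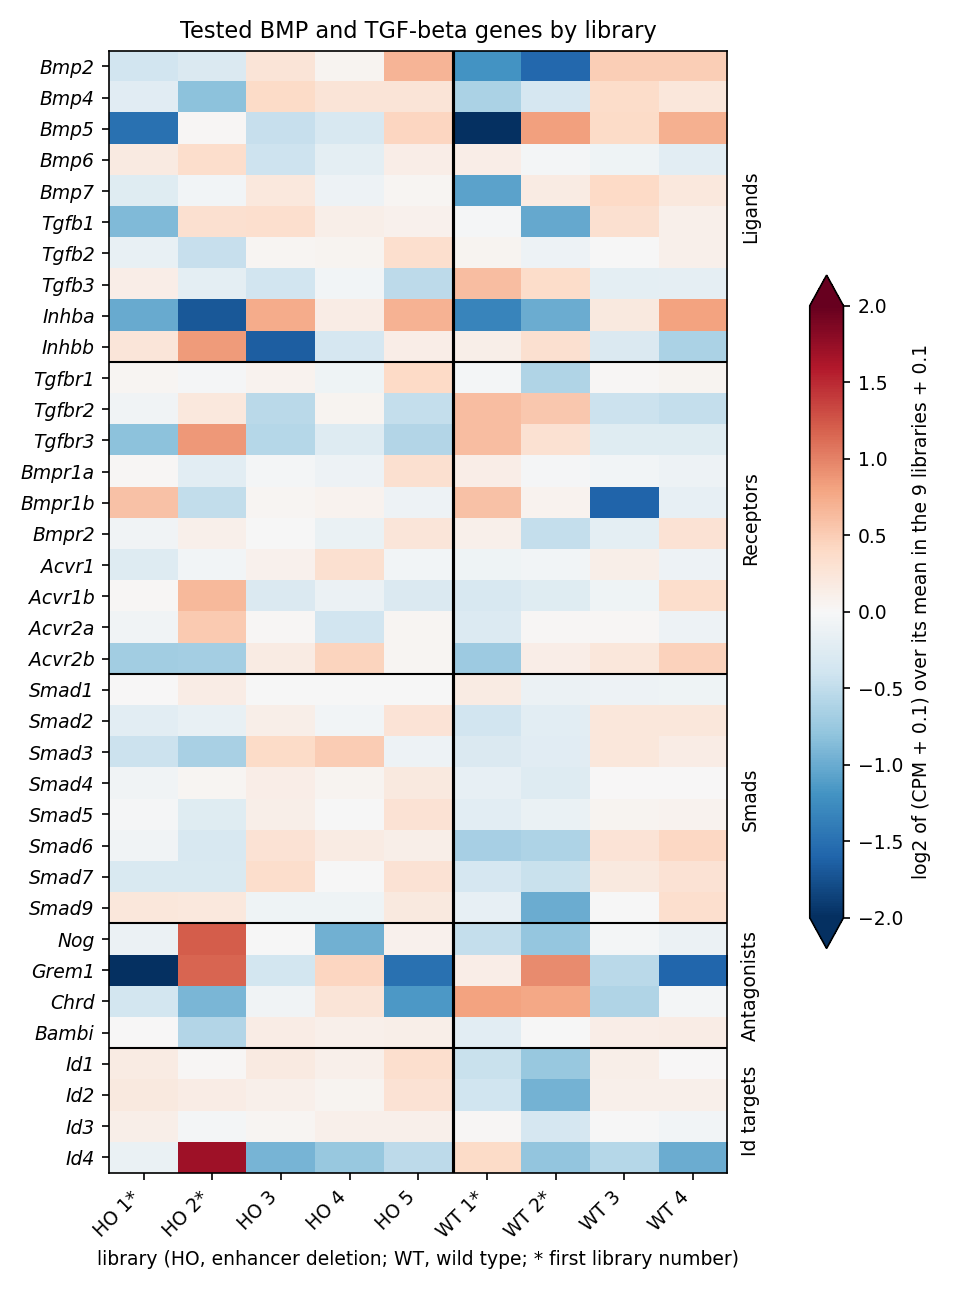
Level of each tested member in each library relative to its own mean over the 9 libraries, on a log2 scale, with HO on the left, WT on the right and asterisks on the first library number; values past the ends of the scale take the end colours. The columns marked with asterisks are blue for Inhba, Bmp4, Smad6 and Smad7 in both genotypes, and HO 2 is the dark red cell of Id4.

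The library numbers separated more members than the genotypes did. In a contrast chosen after the data were seen (edgeR, first number over second, genotype as a term, all 9 libraries), 10 of the 36 members (27.8%) passed an adjusted p of 0.05. Of these 8 were lower in the first number (22.2%), against 5.34% of all genes tested, and 2 were higher (5.56%), against 4.49%. For 7 of the 10 the libraries of the 2 numbers did not overlap. These 10 were picked by the same contrast, and the share of all genes without overlap between the numbers was not computed. The lower ones were 3 ligands (Inhba, Bmp2 and Bmp4), 1 receptor (Acvr2b) and 4 Smads (Smad6, Smad3, Smad7 and Smad2), and the higher ones were Tgfbr2 and Tgfb3.

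Inhba, the activin beta-A subunit, had 17.6, 10.9, 14.2 and 17.8 CPM in HO 1, HO 2, WT 1 and WT 2, against 59.2, 39.4, 57.5, 40.9 and 62.2 CPM in HO 3, HO 4, HO 5, WT 3 and WT 4. Every library of the first number was below every library of the second, and the log2 fold change was -1.78 (SE 0.20, adjusted p = 0.0032). Bmp2 averaged 20.5 ± 8.36 CPM in the first number and 46.3 ± 7.70 CPM in the second (SD, n = 4 and 5), a log2 fold change of -1.21 (SE 0.23, edgeR adjusted p = 0.0135). Bmp4 averaged 97.7 ± 18.3 CPM in the first number and 168 ± 8.62 CPM in the second, a log2 fold change of -0.78 (SE 0.12, edgeR adjusted p = 0.00696).

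Smad7, an inhibitory Smad that TGF-beta induces, ranged over 21.7 to 24.1 CPM in the first number and 29.4 to 38.1 CPM in the second (log2 fold change -0.57, edgeR adjusted p = 0.0107). Smad6 ranged over 75.5 to 114 CPM in the first and 131 to 159 CPM in the second (-0.65, adjusted p = 0.0123), and Smad3 over 32.5 to 43.6 CPM and 47.4 to 72.5 CPM (-0.64, adjusted p = 0.0199). The receptor Smad2 (-0.40) and the type II receptor Acvr2b (-0.77) were also lower in the first number, and Tgfbr2 (0.68, adjusted p = 0.0302) and Tgfb3 (0.47, adjusted p = 0.0479) were higher.

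None of the 4 Id genes passed in this contrast, with adjusted p-values of 0.0969 for Id1 (log2 fold change -0.36), 0.242 for Id2, 0.658 for Id3 and 0.0732 for Id4. Of the 10 members, Bmp2, Bmp4, Inhba and Smad7 passed in all 9 fits that left out 1 library. From 4 to 10 of the 36 members passed per fit. Outside the 10, Id4 passed without HO 1 and without WT 2, and Tgfbr3 passed without HO 1. The count was 4 without WT 3, 5 without HO 3, 6 without WT 1 and 6 without WT 4. The share of all genes that passed was also lower in these fits, at 2.87% without WT 3, 4.30% without HO 3, 5.67% without WT 1 and 3.48% without WT 4, against 9.84% with all 9 libraries. WT libraries alone gave 6 members and 5.33% of all genes, and HO libraries alone gave 1 member, Inhba, and 0.304% of all genes. Some marker lists also differed between the numbers. The summed level of 8 macrophage and leukocyte markers was 186 to 300 CPM in the first number and 59.2 to 111 CPM in the second. That of 6 skeletal muscle markers was 40.2 to 210 CPM and 9.66 to 36.7 CPM. Ckm made up most of the skeletal muscle sum (32.9 CPM in HO 1 and 201 CPM in WT 2), and Pax7 was at 0 CPM. Of the 8 macrophage and leukocyte markers, 8 were higher in the first number at an edgeR adjusted p under 0.05, against 4.49% of all genes. Of the 3 skeletal muscle markers tested, 1 was higher in the first number. Among the 8 cushion mesenchyme markers, 4 were lower in the first number, against 5.34% of all genes. The part of these markers in the members' values was not tested.

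**Figure D5:**
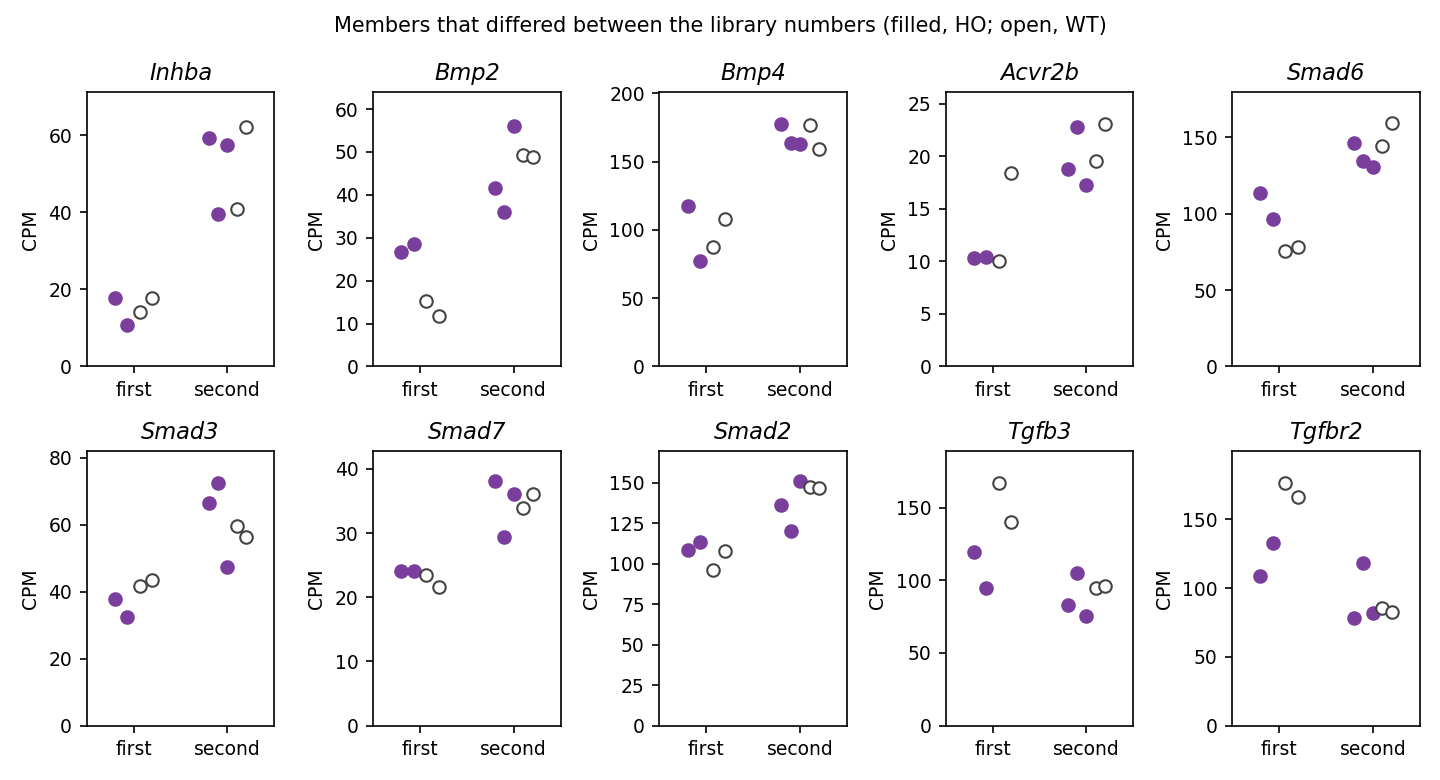
CPM of the 10 members that differed between the library numbers, with the first number on the left and the second on the right of each panel (filled points, HO; open points, WT). The points of Inhba lie at 10.9 to 17.8 CPM on the left and at 39.4 to 62.2 CPM on the right, and those of Tgfb3, Tgfbr2 and Acvr2b overlap between the sides.

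Sequences upstream of the start were taken from the RefSeq promoter table (GRCm38.p6), in which 27 of the 37 members had at least 1 window. The 250 bases before the start are shown for Inhba, Bmp4, Smad6 and Smad3, members that were lower together in the first library number, and for Id4, an Id gene whose window lies before its annotated gene. Capitals mark GGCGCC, the GC-rich core bound by BMP Smads, read on both strands at once since it is its own reverse complement, and CAGAC on either strand, which contains the Smad-binding AGAC.
Inhba (chr13:16011601-16011850, plus strand): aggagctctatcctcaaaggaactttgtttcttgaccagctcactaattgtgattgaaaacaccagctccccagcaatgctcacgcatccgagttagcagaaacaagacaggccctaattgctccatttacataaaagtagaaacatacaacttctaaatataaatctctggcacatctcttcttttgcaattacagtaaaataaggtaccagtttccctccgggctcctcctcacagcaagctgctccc
Bmp4 (chr14:46390670-46390919, minus strand): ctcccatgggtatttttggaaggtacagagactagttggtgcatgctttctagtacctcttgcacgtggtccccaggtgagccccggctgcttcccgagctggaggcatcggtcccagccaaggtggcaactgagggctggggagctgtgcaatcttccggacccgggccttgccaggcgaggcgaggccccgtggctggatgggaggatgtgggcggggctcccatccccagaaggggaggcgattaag
Smad6 (chr9:64022060-64022309, minus strand): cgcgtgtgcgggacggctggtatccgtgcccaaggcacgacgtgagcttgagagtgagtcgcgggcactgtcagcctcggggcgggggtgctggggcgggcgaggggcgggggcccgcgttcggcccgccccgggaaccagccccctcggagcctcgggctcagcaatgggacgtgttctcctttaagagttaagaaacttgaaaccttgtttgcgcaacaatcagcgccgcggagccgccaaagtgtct
Smad3 (chr9:63757995-63758244, minus strand): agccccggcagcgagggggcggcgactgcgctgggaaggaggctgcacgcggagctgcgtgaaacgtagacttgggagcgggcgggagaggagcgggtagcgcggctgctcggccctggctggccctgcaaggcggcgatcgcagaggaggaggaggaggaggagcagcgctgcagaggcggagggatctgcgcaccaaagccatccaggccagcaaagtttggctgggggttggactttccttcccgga
Id4 (chr13:48260866-48261115, plus strand): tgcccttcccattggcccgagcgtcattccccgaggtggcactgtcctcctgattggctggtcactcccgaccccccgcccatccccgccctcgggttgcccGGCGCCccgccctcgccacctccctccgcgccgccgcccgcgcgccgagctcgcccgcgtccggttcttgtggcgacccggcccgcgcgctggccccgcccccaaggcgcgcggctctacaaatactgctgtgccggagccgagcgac
The windows of Inhba, Bmp4, Smad6 and Smad3 hold neither GGCGCC nor CAGAC, and that of Id4 holds 1 GGCGCC. These windows do not stand for all members that differed between the library numbers. The window of Acvr2b, also lower in the first number but not shown, holds 1 CAGAC on either strand. So does that of Tgfbr2, which was higher in the first number. The shorter AGAC, on either strand, does occur in the windows of Inhba, Bmp4, Smad6 and Smad3, and it was neither marked nor counted. Over the members, GGCGCC was in 9 of 32 windows (28.1%), from 9 of 27 genes, against 9.59% of the 32817 windows in the table. CAGAC on either strand was in 12 of 32 windows (37.5%), against 42.2% of all windows. The 2 motifs can overlap by at most 1 base, and windows of 1 gene can overlap each other. A match here is only a run of letters in a window of fixed length.

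A further 121 genes of the same pathways (other ligands, ligand processing and latency, co-receptors, secreted modulators, intracellular regulators and responsive genes) were set beside the members. Of the 106 with enough counts, none changed in edgeR after adjustment, beside 0% of all genes. At an unadjusted p under 0.05, 2 were higher in HO (1.89%) and 7 were lower (6.60%), beside 2.32% and 2.94% of all genes tested. Values of HO and WT did not overlap for 3 of them, Pcsk6, Fstl3 and Zeb2, beside 1.80% of all genes; Zeb2 is named for this count alone.

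Pcsk6, a proprotein convertase that cleaves precursors of this ligand family, had 8.42, 6.49, 7.35, 6.73 and 8.10 CPM in HO 1 to 5, against 14.5, 20.1, 24.3 and 18.4 CPM in WT 1 to 4. Every HO library was below every WT library, by a log2 fold change of -1.38 (SE 0.17, edgeR adjusted p = 0.112), -1.19 within the first library number and -1.53 within the second. DESeq2 (adjusted p = 2.42e-10) and limma-voom (adjusted p = 0.0456) called it, and leaving out 1 library moved the edgeR adjusted p between 0.0537 and 0.593.

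Among the secreted antagonists, Nbl1, a DAN family BMP antagonist, averaged 25.7 ± 5.59 CPM in HO and 41.5 ± 13.0 CPM in WT (log2 fold change -0.69), and Fstl3, which binds activins, 14.1 ± 3.57 CPM in HO and 20.7 ± 1.00 CPM in WT (-0.55). Ltbp4, a latent TGF-beta binding protein, averaged 339 ± 63.0 CPM in HO and 452 ± 48.8 CPM in WT (-0.41), and Amhr2, the anti-Muellerian hormone receptor, 0.648 ± 0.192 CPM in HO and 1.37 ± 0.656 CPM in WT (-1.07; SD, n = 5 and 4 for each of these genes, edgeR adjusted p = 0.896 for each).

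Of the responsive genes, Col1a1, a fibrillar collagen, had a log2 fold change of -0.74, Postn, the matricellular protein periostin, 0.52 and Tbx20, a T-box factor of the heart, 0.52, each with an edgeR adjusted p of 0.896. Within the first library number these were -1.15, 1.07 and 1.07, and within the second -0.12, 0.10 and 0.12. Of the same 106 genes, 25 passed the contrast between library numbers, 20 lower (18.9%) and 5 higher (4.72%) in the first number, against 5.34% and 4.49% of all genes tested. Genes are named from this contrast by their measured values, so they are examples only. The lower ones included the BMP-responsive factors Hand1 (-1.30), Gata4 (-0.74) and Msx2 (-1.16) and the TGF-beta-responsive genes Tgfbi (-1.42) and Has2 (-1.99). The higher ones included Dcn, a proteoglycan that binds TGF-beta (1.77), and Ltbp2 (2.64).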

How the data were processed

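RNA of the dissected outflow tracts was extracted on RNeasy columns and libraries followed a SMART-Seq protocol for low input, per the labels. What the authors deposited is a table of read counts per gene symbol for each library, not normalized. Their processing notes name STAR 2.5.0c, Picard, HTSeq 0.6.0, DESeq2 and mm10, and the sources used here give no order, annotation or strand setting for these. Genes that overlap an opposite-strand partner (among them Bmp4, Tgfb2, Tgfb3, Inhba, Id4, Bmpr1a, Tgfbr3, Smad4, Chrd and Pcsk6) can therefore hold that partner's reads. The 5 rows naming no gene held 20.6% to 23.5% of reads and were left out.

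The tests were run in R 4.3.3 with edgeR 4.0.16: quasi-likelihood, robust, two-sided, TMM factors, filterByExpr at a minimum count of 10 and no covariate, with Benjamini-Hochberg adjustment over all genes and a threshold of 0.05. CPM use TMM-scaled totals. CPM per kb use GENCODE exon lengths on mm10, as do gene coordinates. DESeq2 1.42.0 and limma 3.58.1 (voom) were alternatives. The edgeR and DESeq2 fits were also run on simulated counts with known genotype changes. Those counts held no effect of the library number and no pairs, so they cannot show how the fits behave with either. All members are named, by role. Full values go to those with an unadjusted p under 0.05 and to the most abundant of each role, and other members were added by their values. Up to 8 other pathway genes are named by smallest p. The members, lists and rules were chosen with earlier results of these data known. No pair of libraries within a group agreed within sampling noise.

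The labels do not say that samples are separate embryos, and p-values then cover only the spread among these libraries, which can be technical. Same-numbered HO and WT libraries deviated together (correlations 0.242, 0.137, 0.227 and 0.176 for replicates 1 to 4), and each was over 0.1, so they count as pairs here. The replicate numbers also follow the library number, and unlike replicates of the same library number were not compared. Pairing and library number therefore cannot be told apart. HO 5 has no WT partner and adds nothing to the fold change in a fit with the replicate as a block. The main fit, which gave the member values above, took no account of these pairs. With the replicate as a block in edgeR, the sign of the fold change differed from the main fit for 8 of the 36 members.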

Additional observations from a re-analysis of the deposited data

Results flagged for a closer look

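In 74 groups of HO or WT values, 1 for each member and genotype, 9 held a library far from the others of its group, and chance flags about 1 group in 20. HO 2, the library with the neuron and Schwann cell markers, gave 5 of the 9. Its Id4 level was 109 CPM, beside 30.7 CPM in the next HO library. Its Tgfbr3 level was 22.6 CPM, beside 10.4 CPM, its Acvr1b level 9.18 CPM, beside 5.94 CPM, and its Smad1 level 119 CPM, beside 108 CPM. Its Bambi level was low, at 228 CPM, beside 345 CPM in the next HO library. The part of the neural markers in these values was not tested.

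HO 1 was low for Tgfb1, at 0.745 CPM, beside 1.57 CPM in the next HO library. Among WT libraries, WT 2 was low for Tgfbr1, at 179 CPM, beside 264 CPM, WT 1 was high for Smad1, at 120 CPM, beside 102 CPM, and WT 4 held Bmp10 at 0.0484 CPM, from 2 reads, where the other WT libraries were at 0.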

How the results depend on the processing

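No member passed the adjusted p of 0.05 between HO and WT in any of the 21 alternatives, and the interaction with the library number gave 0 members without HO 5 as well. At an unadjusted p under 0.05, edgeR gave 1 member and limma-voom 0. The library number as a term with HO 5 in the second gave 3. The first number alone gave 7, the second alone 0, and leaving out 1 library 0 to 4. The share of all genes at this p was not computed for these settings, so their counts have no background. With the replicate block, edgeR gave 1 (Id1, log2 fold change 0.39) and 0 after adjustment, and DESeq2 with the replicate block gave 2 (Id1 and Id2). It took the DESeq2 adjusted p of Nkx2-5 past the threshold (0.0241 with the block, 0.0544 without). It changed no adjusted call on a member or on another pathway gene named here, and was not read for the cell type markers. Of the 106 other pathway genes, where edgeR called 0, DESeq2 called 1, limma-voom 1 and DESeq2 with the replicate block 1, Pcsk6 in each. The contrast between library numbers, with 10 members, gave 6 in WT alone, 1 in HO alone and 4 to 10 when 1 library was left out. Id1 lost its unadjusted p under 0.05 in limma-voom, in the second number alone and without HO 1, HO 3, HO 5, WT 1 or WT 2. The cause was not tested. The sign of the fold change held in all 21 alternatives for 11 of the 36 tested members. With 4 WT and 5 HO libraries, the spread between libraries, and for Bmp10 and the scarce antagonists the number of reads, limits what can be read.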
